A study of Mus musculus with 5 samples.

Results

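Of 13412 epithelial cells from 15 mouse mammary tumors, 671 (5.00%) carried an interferon response and are called interferon-high cells. Cells with at least 2500 unique molecular identifiers (UMIs, 1 per captured transcript), no more UMIs than the study's upper limit and a mitochondrial share of 20% or less were used, 19533 of 30340 deposited cells. Such a cell was counted as epithelial when it held at least 5 UMIs of Epcam, Krt8 and Krt18 together and 0 UMIs of the leukocyte gene Ptprc. Each epithelial cell was scored by the mean of ln(1 + UMI per 10000) over Ifit1, Ifit3, Isg15, Iigp1 and Ifi44, and the top 5% over all tumors formed the interferon-high group. The 5 score genes therefore differ by construction, and their values are given as a description without a test.

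All mice were of the strain FVB/N-Tg(MMTV-PyVT)634Mul/J, written MMTV-PyMT here, in which a mouse mammary tumor virus promoter drives the polyoma middle T oncogene mainly in mammary epithelium. Dosing began when the mice were 7 weeks old and lasted 6 weeks, with intraperitoneal injections of 5 mg/kg in PBS, 2 per week. Control mice (6 tumors) received the mouse IgG2a isotype antibody C1.18.4, and treated mice (9 tumors) received B20-4.1.1, which neutralizes mouse VEGF-A. Dissociated tumors were sorted for DAPI-negative viable cells, marked with 4 oligonucleotides per tumor and loaded as 5 pools of 3 tumors, 2 pools of isotype and 3 of B20-4.1.1 tumors. No pool mixed treatments, and the effects of pool and treatment therefore cannot be told apart. High- and low-hypoxia classes of B20-4.1.1 tumors are not given per tumor in the labels and were not compared.

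Interferons are cytokines that cells release on sensing foreign or misplaced nucleic acid, or, in the case of interferon-gamma, that activated T and natural killer cells release. Type I and type III interferons act through a transcription factor complex with IRF9 that binds interferon-stimulated response elements, whereas interferon-gamma acts mainly at gamma-activated sites. The targets include antiviral effectors of the Ifit, Oas and Mx families, guanylate-binding proteins and immunity-related GTPases, and the machinery that presents peptides on MHC class I.

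Each tumor's deposited matrix held between 4014509 and 23726246 UMIs. The libraries of 3 B20-4.1.1 tumors stood apart, with 61.8%, 70.6% and 69.5% of kept cells carrying at least 2 UMIs of the CD3 chains and with 284, 80 and 157 epithelial cells, against 490 to 1931 in the other 12 tumors. In all, 94 cell barcodes occurred in more than 1 tumor file, 0 of them within a pool, and 4 belonged to interferon-high cells. A tumor's own oligonucleotides held 94.1% of the multiplexing UMIs in interferon-high cells and 93.6% in the other epithelial cells.

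The score was a continuum and the line at 5% did not fall in a gap. The lowest interferon-high cell scored 0.816305 and the highest cell outside scored 0.815629, and 53 cells inside and 65 outside lay within 0.05 of the line. Most epithelial cells, 8527 (63.6%), had none of the 5 transcripts. Among the interferon-high cells, 36 held 2 of the 5 transcripts, 203 held 3, 277 held 4 and 155 held all 5. Isg15, a ubiquitin-like protein that is conjugated to other proteins, was detected in 97.8% of interferon-high and 15.5% of other epithelial cells. Ifi44, an interferon-induced protein, was detected in 91.8% and 15.0%, and Iigp1, an immunity-related GTPase, in 82.7% and 12.8%. Ifit1 and Ifit3, which encode tetratricopeptide proteins that bind viral RNA and act in antiviral defense, were detected in 76.3% and 33.5% of interferon-high cells, against 3.69% and 0.408% of the others.

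The promoters of several genes that separate these cells carry the core of the interferon-stimulated response element in its plain spelling. The letters TTTC, any 2 bases and TTTC again (GAAA, any 2 bases and GAAA when read from the opposite strand) were searched. The search covered both strands of the 250 bases before the start in the RefSeq promoters of mouse build GRCm38.p6. Of 32851 promoters in the table, 978 (2.98%) held the motif. Genes looked up without a match are named below and their bases are not shown. The 250 bases before the start of 6 genes are shown, 3 of the score and 3 outside it, and capitals mark the motif. The results below turn on these 6 genes, and all 6 were picked from those that held a match. They are Isg15 (chr4:156200819-156201068, minus strand), Ifit1 (chr19:34640639-34640888, plus strand), Ifit3 (chr19:34583279-34583528, plus strand), Bst2 (chr8:71537473-71537722, minus strand), Gbp2 (chr3:142620413-142620662, plus strand) and Igtp (chr11:58199306-58199555, plus strand).
Isg15: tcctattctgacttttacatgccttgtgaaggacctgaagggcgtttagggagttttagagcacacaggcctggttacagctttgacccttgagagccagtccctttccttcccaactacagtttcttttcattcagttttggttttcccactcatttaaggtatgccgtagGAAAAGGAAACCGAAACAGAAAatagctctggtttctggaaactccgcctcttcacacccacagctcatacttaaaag
Ifit1: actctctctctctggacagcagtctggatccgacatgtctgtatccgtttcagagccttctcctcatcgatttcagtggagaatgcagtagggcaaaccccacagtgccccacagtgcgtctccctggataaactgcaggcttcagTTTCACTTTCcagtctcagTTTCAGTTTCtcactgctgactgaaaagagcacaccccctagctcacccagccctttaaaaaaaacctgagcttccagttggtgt
Ifit3: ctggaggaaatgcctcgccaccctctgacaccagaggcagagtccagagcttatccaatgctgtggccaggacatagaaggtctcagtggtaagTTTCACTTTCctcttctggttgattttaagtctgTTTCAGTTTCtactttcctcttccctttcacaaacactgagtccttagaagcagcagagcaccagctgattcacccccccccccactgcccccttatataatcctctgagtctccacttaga
Bst2: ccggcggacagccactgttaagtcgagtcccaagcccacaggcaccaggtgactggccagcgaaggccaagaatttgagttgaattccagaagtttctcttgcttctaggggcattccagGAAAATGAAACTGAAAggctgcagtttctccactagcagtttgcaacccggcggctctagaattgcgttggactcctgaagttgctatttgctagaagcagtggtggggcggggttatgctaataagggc
Gbp2: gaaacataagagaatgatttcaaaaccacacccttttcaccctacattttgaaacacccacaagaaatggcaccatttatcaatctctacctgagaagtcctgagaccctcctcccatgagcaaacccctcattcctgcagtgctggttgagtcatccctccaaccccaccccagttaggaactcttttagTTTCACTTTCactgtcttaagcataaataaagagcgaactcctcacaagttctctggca
Igtp: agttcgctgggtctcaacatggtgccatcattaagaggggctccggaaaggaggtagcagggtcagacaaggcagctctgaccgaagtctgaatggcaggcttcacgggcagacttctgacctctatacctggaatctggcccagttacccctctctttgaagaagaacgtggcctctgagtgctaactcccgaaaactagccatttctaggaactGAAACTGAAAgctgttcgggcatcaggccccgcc

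Isg15 held 3 overlapping matches that began 78, 72 and 66 bases before the start. Ifit1 held 2 matches, at 104 and 85 bases, and Ifit3 held 2, at 156 and 122 bases. Bst2 held 2 overlapping matches at 130 and 124 bases, Gbp2 1 match at 59 bases and Igtp 1 match at 34 bases. The gamma-activated site core, spelled TTC, any 3 bases and GAA and the same on both strands, had 1 match each in Bst2 and Igtp and was present in 7.02% of all promoters. Of 22 interferon genes looked up, 18 were in the promoter table and 9 of these held the response element core. No match was found in the score gene Ifi44 or in Irf7, Irf9, Oasl2, Ifitm3, Xaf1, H2-K1, Tap1 and Psmb9. Iigp1, Usp18, Mx1 and Zbp1 were not among the 18. A match is a description of the letters in the window and not evidence of binding.

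To ask which other genes set these cells apart, counts were summed per tumor over interferon-high and over other epithelial cells and each tumor's sums were compared with each other. This was done in the 14 tumors (6 isotype and 8 B20-4.1.1) that had 10 or more interferon-high cells. One B20-4.1.1 tumor with 5 such cells was left out of the fits. Of 9035 genes tested with edgeR's quasi-likelihood test, 351 (3.88%) were higher and 95 (1.05%) lower in interferon-high cells at an adjusted p under 0.05, which together is 4.94%. With no filter on low counts 301 of 21451 genes (1.4%) were higher. Of the 351, 95 were on the interferon or antigen presentation lists described below, 12 on other lists and 244 on none. The change reached 1 log2 unit for 112 higher genes and -1 for 9 lower genes. The median log2 fold change over all genes tested was -0.0045. Without cells holding any UMI of an immune marker, which left 11 tumors, 188 genes were higher and 27 lower.

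Type I and III interferon-stimulated genes outside the score were higher throughout. Of 71 listed genes, 68 were in the matrices, 56 passed the filter on low counts and all 56 passed the test as higher, with log2 fold changes that had a median of 2.54 and a range from 0.52 for Ifi27 to 6.80 for Ifit3b. The summed level of the list in interferon-high cells was lowest at 69.8, median 93.6 and highest at 114 UMIs per 10000 over the 14 tumors. In the other epithelial cells of the same tumors it was 12.2, 16.7 and 28.1, so the groups did not overlap and all 14 tumors showed the same order. A gene could pass the filter on low counts through its level in interferon-high cells alone. Of the 56 genes, 54 also held at least 10 UMIs in the other cells of many tumors. All 54 were higher, beside 349 of 9033 such genes over all genes tested. The 4 marker genes given for interferon-responding cells are all part of the score. These 54 genes took no part in the score, but the lists were chosen with earlier results of these data known. Genes that vary together with the score genes rise in part through the choice of cells, so this rise is given as a description.

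Among these genes, Ifitm3, a membrane protein that blocks virus entry, had levels of 15.1 (lowest), 21.8 (median) and 26.0 (highest) UMIs per 10000 in interferon-high cells and of 2.08, 3.10 and 6.97 in the others. The highest other value lay below the lowest interferon-high value, and the fold was 6.43 (log2 2.69, SE 0.11, edgeR adjusted p = 1.1e-18). Bst2, or tetherin, which holds budding virus at the cell surface, had levels of 4.51, 5.92 and 8.72 against 0.407, 0.547 and 1.68. The groups again did not overlap, and the fold was 9.32 (log2 3.22, SE 0.12, edgeR adjusted p = 7.4e-19). Irf7, the factor that amplifies type I interferon production, rose 12.1-fold (SE 0.15 on the log2 scale), from 0.187 to 1.10 in the other cells to 3.26 to 8.35 in interferon-high cells. Ifi27l2a, an interferon-induced protein, varied widely among tumors, from 0.543 to 12.0 UMIs per 10000 in interferon-high cells against 0.0747 to 1.21. Its groups overlapped across tumors, and its fold within tumors was 13.9 (log2 3.80, SE 0.21). Slfn2 rose 5.99-fold and Ifi27 1.43-fold. Close paralogs in the Ifit and Ifitm families can lose or split reads in the counting, so the folds of Ifit3, Ifit3b and Ifitm3 are less certain than the others.

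**Figure D1:**
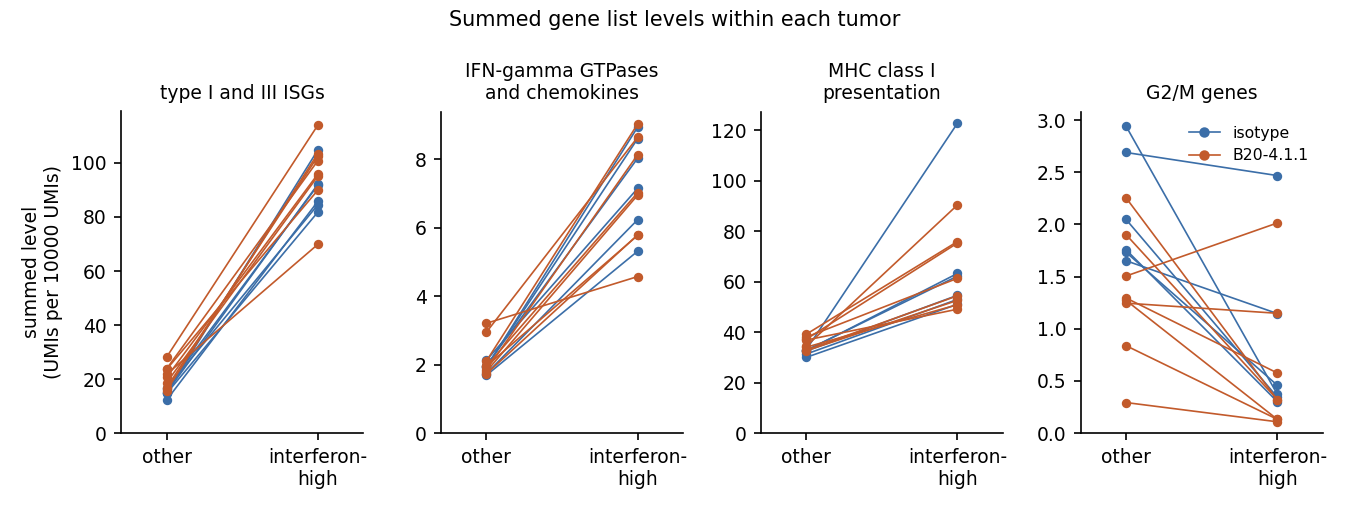
Summed UMIs per 10000 (linear axes, 1 panel per list, each with its own scale) of 4 gene lists in the other epithelial cells and in the interferon-high cells of the 14 tumors, with 1 line per tumor and colors for treatment. Interferon-stimulated genes outside the score lay at 12.2 to 28.1 in the other cells and 69.8 to 114 in interferon-high cells, and the G2/M list was lower in interferon-high cells in 13 of 14 tumors.

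Each score gene was also compared with the top 5% of cells chosen on the other 4 genes. Ifit3 was then 113-fold higher in the chosen cells (log2 6.83, SE 0.24), Ifit1 40.1-fold (log2 5.33, SE 0.17), Isg15 20.3-fold (log2 4.34, SE 0.18), Iigp1 13.3-fold (log2 3.73, SE 0.13) and Ifi44 12.7-fold (log2 3.66, SE 0.15). The 5 genes had been put together as interferon-induced genes. A rise of the gene left out was therefore in part fixed by that choice and is given as a description. The 5 genes marked overlapping sets of cells. Chosen by all 5 genes, the cells held 6.89 to 14.4 UMIs of Isg15 per 10000, median 9.95, against 0.132 to 0.963 in the others. Iigp1 stood at 1.72 to 7.13, median 4.47, against 0.157 to 0.540, and Ifit1 at 1.06 to 5.84, median 3.42, against 0.0221 to 0.122.

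Genes that interferon-gamma is known to induce were also higher. Of 30 listed genes (guanylate-binding proteins, immunity-related GTPases, Irf1 and chemokines), 10 passed the filter and 8 passed the test as higher, namely Casp1, Gbp2, Gbp3, Gbp7, Igtp, Irf1, Irgm1 and Irgm2, and 9 of 10 had a positive log2 fold change (median 2.80). The summed level was 4.58, 7.09 and 9.03 UMIs per 10000 (lowest, median, highest) against 1.69, 1.95 and 3.21, higher in 14 of 14 tumors. Cxcl9 was at 0 in interferon-high cells. Igtp, an immunity-related GTPase that acts at pathogen-containing vacuoles, had levels of 0.471, 0.928 and 2.03 against 0.0299, 0.0729 and 0.153, with no overlap and a fold of 12.9 (log2 3.69, SE 0.18, edgeR adjusted p = 8.2e-17). Gbp2, a guanylate-binding protein that attacks vacuoles and bacteria, had levels of 0.332, 0.824 and 1.41 against 0.0625, 0.137 and 0.217, again without overlap and with a fold of 7.04 (log2 2.82, SE 0.14). Irgm1 and Gbp7 rose 7.25-fold and 6.88-fold. Casp1, the inflammasome protease, and Irf1, a transcription factor, rose less, 1.51-fold and 1.57-fold, and their values overlapped between the cell groups. All 8 genes were in the promoter table and 6 of them held the response element core (75%), against 3.46% of all genes in the table. The core of the interferon-gamma activated site (TTC, any 3 bases and GAA) was in 4 of the 8 (50%), against 8.13% of all genes. Of the higher MHC class I genes, described next, 15 were in the table. Of these, 3 held the response element core (20%) and 1 the core of the interferon-gamma activated site (6.67%).

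Antigen presentation on MHC class I rose by smaller folds. Of 22 listed genes, 19 were tested and 17 were higher. All 19 log2 fold changes were positive, with a median of 1.06. The summed level was 49.1, 58.0 and 123 UMIs per 10000 against 30.0, 33.0 and 39.2, higher in 14 of 14 tumors. B2m, the invariant light chain, had levels of 4.36, 10.2 and 34.1 against 2.58, 3.32 and 5.62, which overlapped across tumors, and a fold of 3.33 (log2 1.74, SE 0.14, edgeR adjusted p = 5.3e-11). The heavy chains H2-K1 and H2-D1, which are close copies of each other in sequence, were 2.16-fold and 2.11-fold higher. Psme1, a proteasome activator, was 1.62-fold higher. Tap1, which pumps peptides into the endoplasmic reticulum, and Psmb9, an immunoproteasome subunit, were named after their values had been seen and were 4.77-fold and 4.18-fold higher. One isotype tumor, the fourth, carried the highest values, with a summed level of 123 where the next isotype tumor had 63.3. Of MHC class II genes, 5 of 8 were tested and 1 passed, Ctss, a protease of antigen-presenting cells (log2 1.16, SE 0.35, edgeR adjusted p = 0.048), while Cd74 had a log2 fold change of 0.90 (SE 0.40, adjusted p = 0.26). Ctss missed the threshold in 15 of 23 other settings. The sixth isotype tumor had a summed class II level of 6.27 in interferon-high against 0.318 in other epithelial cells, and its summed macrophage markers stood at 5.89 against 0.653. The part of macrophage RNA in the class II values was not tested.

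The signalling pathway itself was uneven. Of 17 signalling and feedback genes tested, 8 were higher, among them Irf7, Irf9, Stat3 and Usp18. The median log2 fold change of the list was 0.16. Irf9, the DNA-binding part of the type I complex, was 2.65-fold higher (SE 0.09 on the log2 scale) without overlap, at 0.652 to 1.58 against 0.319 to 0.604. Usp18, the protease that removes Isg15 from proteins and damps the receptor, was named after its values had been seen and was 27.3-fold higher. Stat3 was 1.22-fold higher with overlapping levels, 1.41 to 2.22 against 1.28 to 2.08.

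Interferon receptors changed little. Of 6 receptor genes, 5 were tested and 1 passed, Ifnar2, a chain of the type I receptor, with levels of 0.545, 0.736 and 1.06 against 0.485, 0.624 and 0.779 and a fold of 1.22 (log2 0.29, SE 0.08, edgeR adjusted p = 0.029). Ifnar2 missed the threshold in 16 of 23 other settings, thinning to equal depth among them. The log2 fold change was 0.15 for Ifnar1 (SE 0.13), -0.094 for Ifngr1 (SE 0.084) and 0.092 for Ifngr2 (SE 0.089), with adjusted p-values of 0.67 to 0.73. Interferon transcripts were rare in the interferon-high cells, and none of the 14 ligand genes passed the filter on low counts. The 671 cells held 19 ligand UMIs, 18 of Ifnk and 1 of Ifnz, and 12 of 14 ligands were at 0. Ifng had 0 UMIs in them, which allows a share of up to 0.447% of cells with a UMI, 15 UMIs in the 12741 other epithelial cells and 334 UMIs in 5547 cells with Ptprc. The 13 other ligands together held 235 UMIs in the other epithelial cells, 221 of them of Ifnk. In cells with Ptprc they held 101 UMIs, 44 of Ifnk and 56 of Ifnb1, the latter in 10 cells. Cells that were filtered out or not captured were not analysed here.

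Sensors of nucleic acid and effectors of cell death were raised in part. Of 19 sensing genes tested, 10 were higher (Adar, Ddx58, Dhx58, Eif2ak2, Ifih1, Samhd1, Tlr3, Tlr4, Trim25 and Zbp1), and the median log2 fold change was 0.73. Zbp1, a sensor of Z-form nucleic acid that can trigger necroptosis, had levels of 1.26, 1.83 and 2.62 UMIs per 10000 against 0.221, 0.275 and 0.481, without overlap, and a fold of 6.75 (log2 2.76, SE 0.09). The RNA sensors Ifih1 (MDA5) and Ddx58 (RIG-I) were 5.30-fold and 4.14-fold higher, the RNA-dependent kinase Eif2ak2 3.77-fold and the nucleotide hydrolase Samhd1 2.47-fold. Of 13 genes linking interferon to cell death, 7 were higher, with a list median of 0.60. They included Xaf1, an antagonist of inhibitors of apoptosis (9.62-fold), Tnfsf10, which encodes TRAIL (5.95-fold), and Daxx (2.95-fold).

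**Figure D2:**
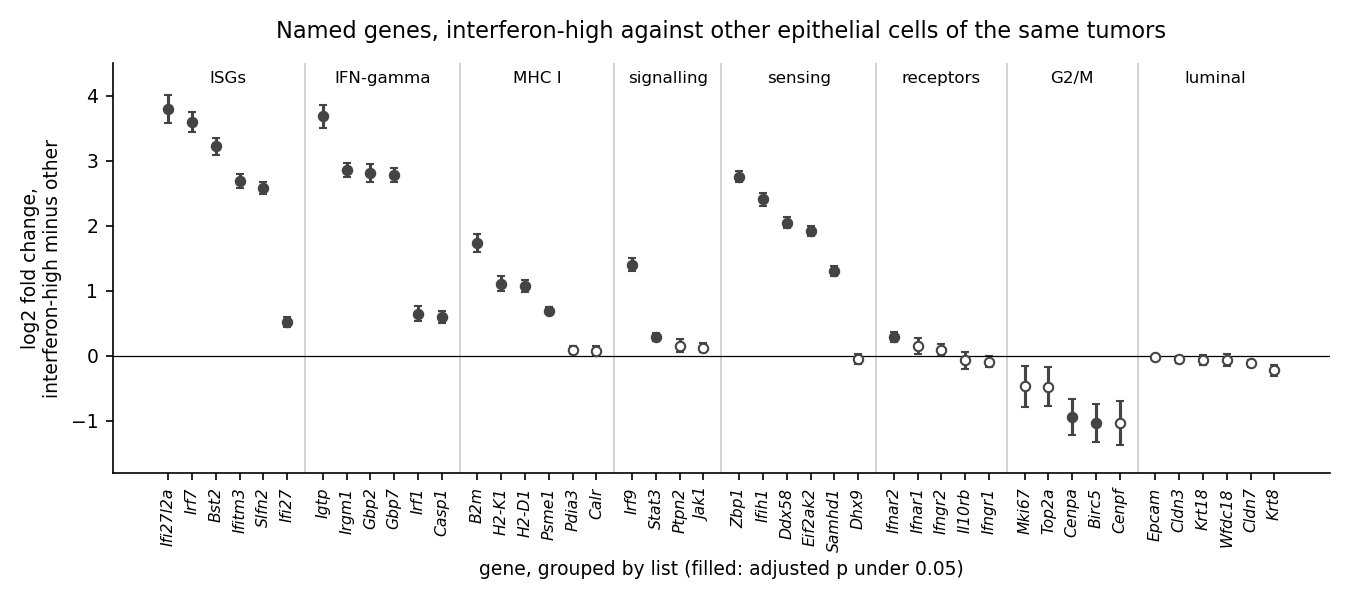
Log2 fold change, interferon-high minus other epithelial cells, of genes named by the rule, grouped by role, with bars of 1 standard error from edgeR over 14 tumors and filled points for an adjusted p under 0.05. Bst2 (3.22) and Igtp (3.69) lay far above 0, receptors such as Ifngr1 (-0.094) near 0 and G2/M genes such as Birc5 (-1.03) below 0.

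Beyond the lists, the genes with the largest rises that had the same sign in all 14 tumors were led by Apol9a, an apolipoprotein L family member, at 0.199, 0.964 and 1.43 UMIs per 10000 against 0.0181, 0.0507 and 0.190. Its groups did not overlap, and it was 14.1-fold higher (log2 3.81, SE 0.21, edgeR adjusted p = 3.0e-15). Mitd1, which acts in the last step of cell division, was 2.89-fold higher, Ogfr, the opioid growth factor receptor, 2.26-fold, Nampt, an enzyme of NAD synthesis, 2.02-fold, and Tspo, a mitochondrial outer membrane protein, 1.78-fold. The other genes named by the rule were Csprs, AU020206, Plscr2, Tor1aip1, Ppa1, Trim56, Rnf114, Agrn, Zufsp and Ankfy1. Apol9a has a near-identical neighbor, Apol9b, so its counts are less certain.

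Some proliferation genes were lower. Of 20 G2/M genes, 7 were tested and 3 fell, Birc5, Cenpa and Ube2c, and all 7 log2 fold changes were negative (median -1.03). The summed G2/M level was 0.109, 0.359 and 2.47 UMIs per 10000 (lowest, median, highest) in interferon-high cells and 0.293, 1.69 and 2.94 in the others, lower in 13 of 14 tumors with overlapping ranges. Birc5, or survivin, which acts in chromosome segregation, fell by 1.03 on the log2 scale (SE 0.29, edgeR adjusted p = 0.029), and Cenpa, the centromeric histone, fell by 0.94 (SE 0.27, adjusted p = 0.038). Mki67 and Top2a had log2 fold changes of -0.47 (SE 0.32) and -0.48 (SE 0.30) with adjusted p-values of 0.54 and 0.49. Of 8 S-phase genes tested 1 fell, Tyms, the thymidylate synthase (-0.53, SE 0.15). Of the other settings that tested them, Tyms missed the threshold in 18 of 23, among them each with a pool left out, Cenpa in 12 of 20, Birc5 in 7 of 19 and Ube2c in 5 of 16. The largest fall of a gene with the same sign in all 14 tumors was that of Pclaf, a PCNA-associated factor (-1.41, SE 0.27, adjusted p = 0.00068), followed by the secretoglobin Scgb1c1 (-1.27, SE 0.22). Ran, the nuclear transport GTPase, fell by 0.39 (SE 0.08). These low transcripts rest on 60 UMIs of Pclaf and 71 of Birc5 in all interferon-high cells of the fit. The share of cells with at least 2 G2/M UMIs after thinning to 2500 UMIs was 1.58% ± 2.24 in interferon-high and 3.65% ± 1.66 in other epithelial cells (SD, n = 14), a paired difference of -2.07 points that did not pass (exact sign-flip permutation p = 0.0161, adjusted p = 0.0564 over 7 measures).

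Secretory and hypoxia genes moved less. Of 10 milk protein genes tested, 3 were higher (Csn3, Spp1 and Xdh) and 1 lower (Csn2). Spp1, which encodes osteopontin, had levels of 46.4, 161 and 271 UMIs per 10000 in interferon-high cells and of 51.9, 101 and 184 in the others. These ranges overlapped, and the fold within tumors was 1.51 (log2 0.59, SE 0.10, edgeR adjusted p = 7.6e-05). Spp1 missed the threshold in 2 of 23 other settings, the one without immune marker UMIs among them. Csn3, kappa-casein, was 1.24-fold higher, and Csn2, beta-casein, fell by 1.79 (SE 0.21). Lcn2, an iron-binding defense protein on the list of NF-kB targets, was 1.39-fold higher (SE 0.06 on the log2 scale), as 1 of 2 genes of 11 tested on that list. Of 25 hypoxia genes, 5 were higher (Aldoa, Car9, Pgam1, Pgk1 and Vegfa), with a list median of 0.26, and 24 of 25 values were positive. Over 23 other settings Pgam1 and Vegfa each missed the threshold in 16, Pgk1 in 15, Aldoa in 14 and Car9 in 7. Thinning to equal depth was among these settings for all 5 genes. The hypoxia score over Vegfa, Slc2a1 and Car9 was 0.218 ± 0.0697 against 0.175 ± 0.0302 (SD, n = 14), which did not pass (exact sign-flip permutation p = 0.0358, adjusted p = 0.0835). Of 18 immediate-early and stress genes 2 were higher (Egr1 and Hspa1b), and 1 of 15 luminal genes was lower (Krt19). Each of Egr1 and Krt19 missed the threshold in 17 of 23 other settings. Of 2 basal genes tested neither passed (0 at an unadjusted p under 0.05).

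The interferon-high cells did not stand out in depth. Their median UMI count per tumor was 46.5 higher than that of the other epithelial cells (exact sign-flip permutation p = 0.891, n = 14), and 8 of 14 tumors showed this direction. Mitochondrial UMIs made up 3.98% ± 1.22 in interferon-high and 4.54% ± 1.31 in other cells, lower in 12 of 14 tumors (exact sign-flip permutation p = 0.00195, adjusted p = 0.0137, n = 14). This difference lost its call when cells were first thinned to 2500 UMIs (-0.338 points, adjusted permutation p = 0.26). Markers of other cell types were low in both groups. Of 12 macrophage markers, 6 were tested and none passed (0 also at an unadjusted p under 0.05), and their summed level was 0.466, 1.13 and 5.89 UMIs per 10000 against 0.562, 1.17 and 5.28. The log2 fold change was -0.027 for Lyz2 (SE 0.23) and 0.71 for C1qa (SE 0.42, edgeR adjusted p = 0.46). The 12 T and NK markers summed to 0.0540 to 0.618 against 0.103 to 0.664, with none tested, as were the B, endothelial and fibroblast markers, and none of the 2 neutrophil markers tested passed (1 at an unadjusted p under 0.05). Of 8 dendritic markers the one tested was Bst2, itself interferon-stimulated. Of the defining markers, 4 of 6 B, 2 of 7 endothelial and 2 of 7 fibroblast genes were at 0.

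The interferon response was graded. The list of interferon-stimulated genes outside the score had a median summed level over tumors of 13.5 UMIs per 10000 in cells with a score of 0 and 20.7 in scoring cells below the top 10%. It was 45.3 between the top 10% and 5%, 69.0 between 5% and 2.5%, and 113 in the top 2.5%. Neighboring bins overlapped between the 2 lowest (highest tumor 16.6 against lowest tumor 14.6 of the next) and between the third and the fourth (58.6 against 57.7), and the other neighbors did not overlap. The interferon-gamma list followed at 1.67, 2.16, 3.37, 4.60 and 10.0, and the MHC class I list at 30.7, 35.9, 49.0, 53.4 and 63.8. G2/M genes ran 1.66, 1.48, 0.575, 0.247 and 0.440, with overlapping ranges in all bins. Median UMIs per cell were 8014 in the lowest bin and 10374, 9071, 8992 and 8337 in the others, and the part of this in the grading was not tested.

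**Figure D3:**
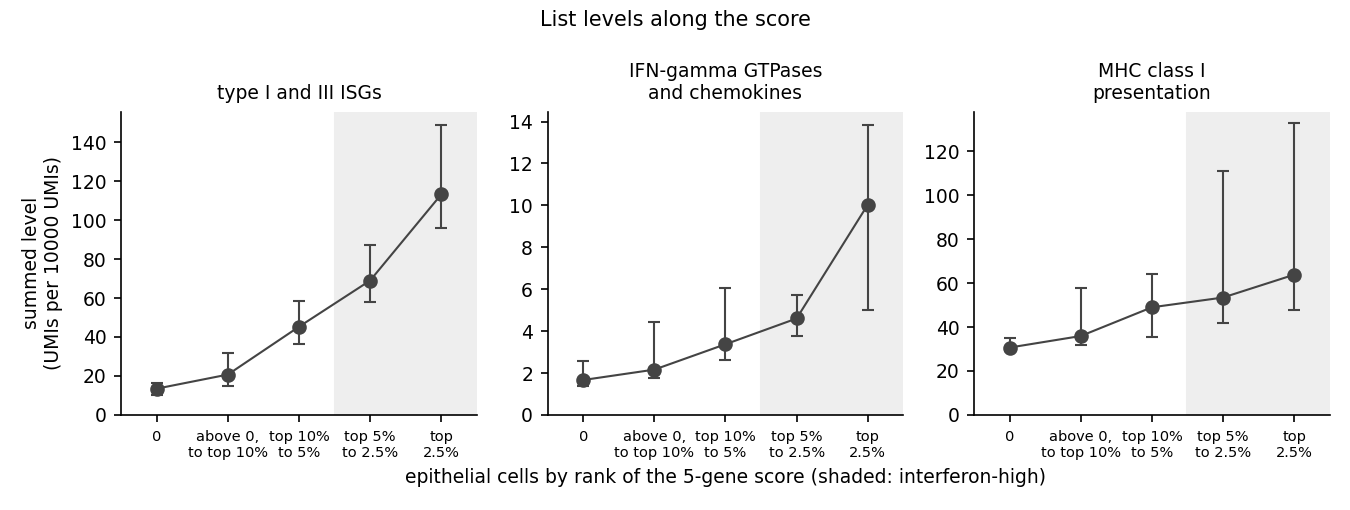
Median over tumors of the summed UMIs per 10000 of 3 gene lists in 5 bins of the interferon score (the bins shaded are the interferon-high cells), with bars from the lowest to the highest tumor holding at least 10 cells of the bin. Interferon-stimulated genes outside the score rose from a median of 13.5 to 113 and MHC class I genes from 30.7 to 63.8 across the bins.

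The cells differed among themselves in which score gene led. In 91 of the 671 cells (13.6%) Iigp1 had the highest of the 5 values. Genes that vary together with Iigp1, or with the other score genes, thus differ in part through this choice. Only 3 tumors held at least 10 cells of each kind, too few for a fit, so their values are given without a test. In the third isotype tumor the interferon-gamma list summed to 11.6 UMIs per 10000 in 10 Iigp1-led cells and 7.82 in 49 other interferon-high cells. It was 13.8 in 13 and 7.69 in 42 cells in the fourth isotype tumor, and 17.3 in 20 and 8.10 in 152 cells in the ninth B20-4.1.1 tumor. The value was higher in the Iigp1-led cells in all 3, and Gbp2 likewise stood at 2.72 against 1.04, 2.19 against 0.516 and 3.01 against 0.965. The list of type I and III targets was 98.2 against 90.5, 118 against 101 and 109 against 114.

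In the wider top 10% of cells, a setting also used for the other comparisons, 9 tumors (6 isotype and 3 B20-4.1.1) held enough of both kinds, with 168 Iigp1-led and 913 other cells. Of 3936 genes tested, 50 (1.27%) were higher and 54 (1.37%) lower in the Iigp1-led cells by edgeR, 2.64% in all. On the interferon-gamma list 3 of 7 tested genes were higher, with a list median of 0.067 beside 0.0022 over all genes. Gbp2 rose by 1.26 (SE 0.26, edgeR adjusted p = 0.012), Gbp7 by 0.89 (SE 0.20) and Igtp by 0.72 (SE 0.16). Of 41 tested type I and III targets, 1 was higher, Ifi47, an immunity-related GTPase (0.94, SE 0.18), and 3 were lower. The lower ones were Bst2, at 0.967, 2.52 and 3.81 UMIs per 10000 (lowest, median, highest of 9 tumors) against 3.49, 4.56 and 7.85, a log2 difference of -0.94 (SE 0.15, adjusted p = 0.0011), Ifitm3 (-0.59, SE 0.13) and Rtp4 (-0.54, SE 0.13). The 15 MHC class I genes tested had a median of 0.0013, and 8 values were positive. The Iigp1-led cells were chosen for Iigp1 above the other score genes. The direction of interferon-gamma genes and type I and III targets is therefore in part fixed by this choice and is given as a description.

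Outside the interferon lists, the Iigp1-led cells of the top 10% had more Prlr, the prolactin receptor (log2 1.73, SE 0.23, edgeR adjusted p = 0.00037). It was higher in 8 of 9 tumors. Among the 3 tumors of the stricter group, Prlr was 1.00 against 2.06, 1.56 against 1.25 and 1.07 against 1.01 UMIs per 10000, so its order was not the same there. The largest rises with the same sign in 9 of 9 tumors were Ptpn1, a tyrosine phosphatase of cytokine receptor signalling (1.26, SE 0.19), Cd164, a sialomucin (1.21, SE 0.19), Wnt5a (1.14, SE 0.22), Tnfrsf21 (0.99, SE 0.17) and Fam13a (0.97, SE 0.17). The largest falls were Anxa3 (-1.40, SE 0.21), Tm4sf1 (-1.14, SE 0.13), Gsta4 (-0.99, SE 0.23), Gjb2 (-0.98, SE 0.21) and Bst2. Of 16 hypoxia and glycolysis genes, 6 were lower (Pgk1, Gapdh, Tpi1, Pgam1, Aldoa and Ero1l), with a list median of -0.54. Of 10 milk protein genes, Btn1a1, a milk fat globule protein (0.75, SE 0.15), and Xdh (0.59, SE 0.15) were higher. The basal keratin Krt14 was lower as well (-1.60, SE 0.41, adjusted p = 0.041). Leaving out the second isotype pool gave 44 genes in place of 104, and leaving out the third B20-4.1.1 pool, with which all B20-4.1.1 tumors drop out, gave 46. With the top 5% taken within each tumor, 2 genes were higher and 3 lower.

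**Figure D4:**
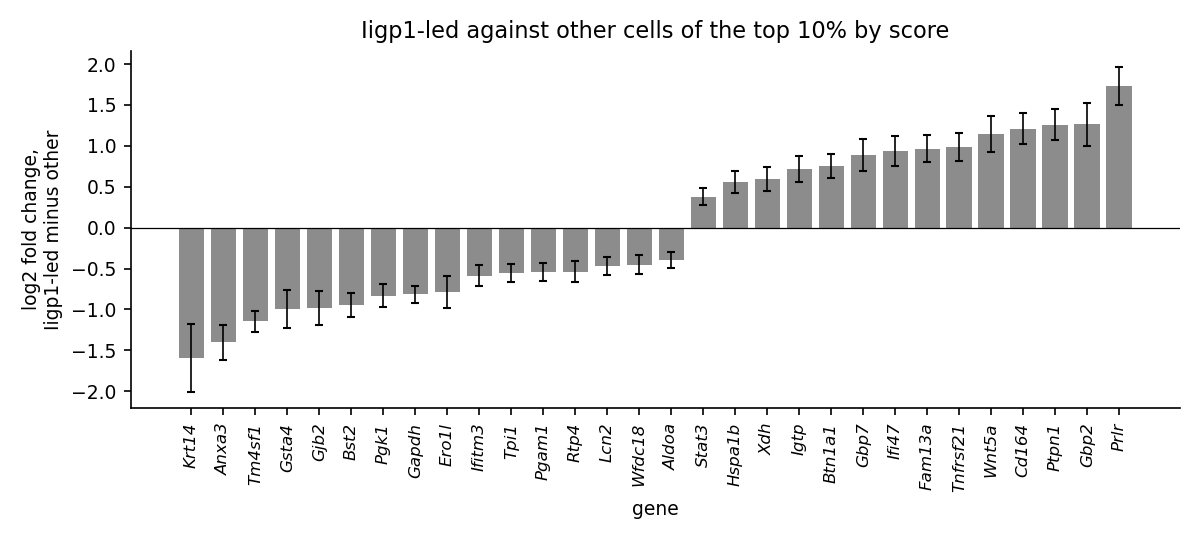
Log2 fold change, Iigp1-led minus other cells of the top 10% by interferon score, for the list members and largest changes past the threshold, with bars of 1 standard error from edgeR over 9 tumors. Gbp2 (1.26), Igtp (0.72) and Prlr (1.73) were higher and Bst2 (-0.94), Ifitm3 (-0.59) and 6 hypoxia genes lower.

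To ask whether VEGF-A blockade went with the interferon response, the share of interferon-high cells among epithelial cells was compared between treatments. It was 1.97% (lowest), 3.73% (median) and 5.01% (highest) in isotype tumors and 2.24%, 6.25% and 17.95% in B20-4.1.1 tumors. The ranges overlapped, yet the highest isotype tumor was exceeded by 7 of 9 B20-4.1.1 tumors. The means were 3.46% ± 1.09 (SD, n = 6) and 7.10% ± 4.44 (n = 9), a difference of 3.64 points (exact two-sided permutation p = 0.0370). The ninth B20-4.1.1 tumor stood far above the rest with 172 of 958 cells (exact 95% interval 15.6% to 20.5%, counting error only) and held 25.6% of all interferon-high cells. Without it the difference was 2.29 points (exact permutation p = 0.0226). In the smallest sample, with 80 epithelial cells, the share was 6.25% (2.06% to 14.0%).

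Over pools the shares were 4.21% and 2.65% for isotype and 4.26%, 5.50% and 10.4% for B20-4.1.1, with a difference of 3.28 points and an exact permutation p of 0.2, where 0.1 is the smallest that 2 against 3 pools allow. Leaving out the first isotype pool (4.41 points, exact permutation p = 0.127), the second isotype pool (2.88 points, p = 0.323) or the third B20-4.1.1 pool (2.16 points, p = 0.0584) ended the call. It was also lost when the score was built without Isg15 (2.09 points, exact permutation p = 0.215) and when the share was taken of all kept cells (1.45 points, p = 0.503). Isg15 itself had a median level in other epithelial cells of 0.173 UMIs per 10000 in isotype and 0.649 in B20-4.1.1 tumors.

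**Figure D5:**
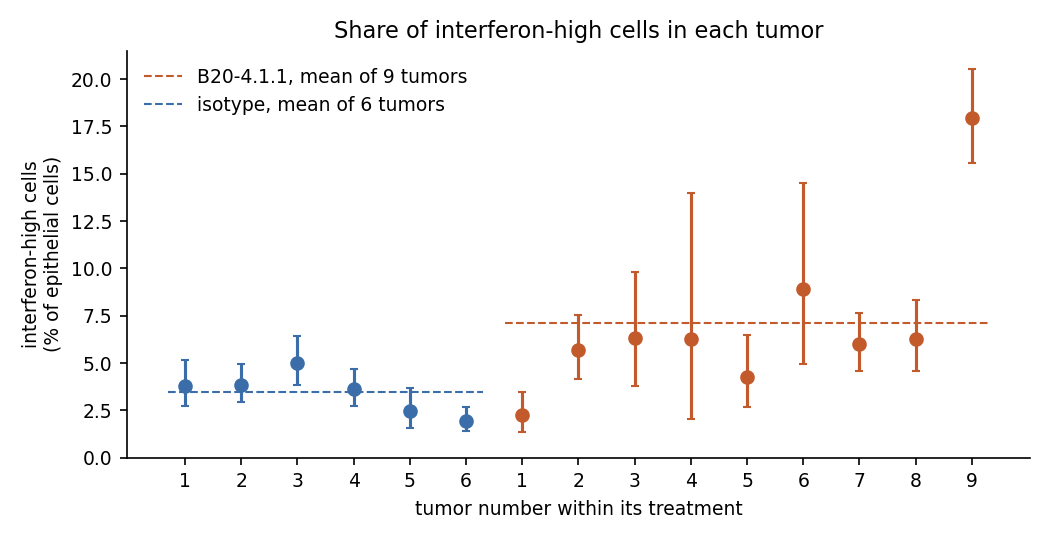
Interferon-high cells as a percentage of epithelial cells in each of 15 tumors, by treatment, with exact 95% binomial intervals and the treatment means as dashed lines. Isotype tumors lay between 1.97% and 5.01% and B20-4.1.1 tumors between 2.24% and 17.95%, with the ninth B20-4.1.1 tumor at the top.

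The background of interferon-stimulated genes in the remaining epithelial cells differed by treatment over tumors, and 2 against 3 pools allow no p under 0.1, in comparisons added after the data had been seen. The list summed to 12.2, 15.0 and 16.5 UMIs per 10000 in isotype and 15.7, 21.8 and 28.1 in B20-4.1.1 tumors, overlapping at the edge. The means were 15.0 ± 1.56 (SD, n = 6) and 21.3 ± 3.85 (n = 9; exact permutation p = 0.0030, adjusted p = 0.0174 over 6 tests). MHC class I genes stood at 32.1 ± 1.16 and 36.4 ± 3.18 there (exact permutation p = 0.0058, adjusted p = 0.0174). In the other epithelial cells of the 14 fitted tumors, T and NK markers summed to a median of 0.163 in isotype and 0.430 in B20-4.1.1 tumors. Macrophage markers summed to 1.53 and 1.17. The part of leukocyte RNA in these differences was not tested. The pool means of the interferon-stimulated list were 13.9 and 16.0 in isotype and 17.1, 21.7 and 25.2 in B20-4.1.1 pools. Over these 2 and 3 pools the exact permutation p was 0.2 for this list and 0.1 for the MHC class I list, where 0.1 is the smallest that the design allows. Within the interferon-high cells, whose score was fixed by the choice, the interferon-stimulated list summed to 90.1 ± 8.26 (n = 6) and 96.4 ± 12.9 (n = 8; exact permutation p = 0.319). The interferon-gamma list did not pass in either group of cells (exact permutation p = 0.150 in other epithelial and 0.633 in interferon-high cells).

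Within interferon-high cells, 208 of 5097 genes tested differed between treatments by edgeR. Under B20-4.1.1, 108 (2.12%) were higher and 100 (1.96%) lower. The number depended on the pools compared. It was 19 without the first isotype pool and 675 without the second, 106 without the first and 73 without the third B20-4.1.1 pool, 115 when voom treated pool as a random effect and 33 with sums per pool. Of 54 interferon-stimulated genes tested, 2 were higher (Ifi35 and Xaf1) and 1 lower (Parp14), with a median of -0.03 beside -0.01 over all genes. Parp14 missed the threshold in 15, Xaf1 in 11 and Ifi35 in 8 of 24 other settings. None of the 3 passed with sums per pool, and with pool as a random effect Xaf1 and Parp14 did not. None of the 8 interferon-gamma or 17 MHC class I genes passed with edgeR (0 and 4 at an unadjusted p under 0.05).

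Hypoxia genes were higher under B20-4.1.1 within these cells, 8 of 21 tested (Aldoa, Ankrd37, Bnip3, Gapdh, Ldha, Pgam1, Pgk1 and Tpi1), with a median of 0.33. The summed list was at 33.8, 37.6 and 41.1 UMIs per 10000 (lowest, median, highest) in isotype and 45.3, 50.6 and 62.7 in B20-4.1.1 tumors. The other epithelial cells differed in the same direction, at 31.4, 33.4 and 36.1 against 42.6, 44.9 and 51.6, also without overlap, and no hypoxia gene passed the test of a differing contrast described below (0 of 25, with 5 at an unadjusted p under 0.05). With counts summed per pool, Aldoa, Gapdh, Ldha, Pgam1, Pgk1 and Tpi1 did not pass, and with pool as a random effect Aldoa, Ldha, Pgam1 and Tpi1 did not. Over the 24 other settings tried, Ldha missed the threshold in 19, Pgam1 in 15, Tpi1 in 14 and Aldoa in 12. Gapdh had levels of 2.10, 2.67 and 3.09 UMIs per 10000 in isotype and 2.87, 4.06 and 4.84 in B20-4.1.1 tumors, nearly without overlap, a log2 difference of 0.65 (SE 0.13, adjusted p = 0.0070 by edgeR). Glycolytic genes have many pseudogenes, which makes their counts less certain. Spp1 had levels of 46.4, 105 and 138 against 106, 232 and 271, a log2 difference of 1.16 (SE 0.20, adjusted p = 0.0033). Of 10 milk protein genes, 4 were lower (Btn1a1, Csn1s1, Csn1s2a and Lalba) and Spp1 higher. Lalba, alpha-lactalbumin, stood at 21.2, 34.3 and 39.9 against 10.5, 15.7 and 24.6, a log2 difference of -0.91 (SE 0.18, adjusted p = 0.0062). Csn1s1 fell by 2.58 (SE 0.54, adjusted p = 0.0090). Over 24 other settings the call was lost in 8 for Csn1s1, in 5 for Lalba and in 2 for Spp1, each time also without immune marker UMIs. No milk protein gene passed the test of a differing contrast (0 of 12, with 3 at an unadjusted p under 0.05).

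By the rule for largest changes, Mcrip1, Alyref, Timm50, Mpdu1 and Psmc5 led the genes higher under B20-4.1.1. Mcrip1, a regulator of transcriptional repression, had levels of 0.567, 0.717 and 0.868 UMIs per 10000 in isotype and 1.24, 1.49 and 1.97 in B20-4.1.1 tumors, without overlap (log2 1.09, SE 0.16, edgeR adjusted p = 0.00090). Such separation was seen for 20 higher and 20 lower genes (0.392% of those tested each). Sema6a, Ulk1, Chd7, Mib1 and mt-Nd5 led the lower ones. The mitochondrial transcript mt-Nd5 had levels of 4.74, 7.27 and 9.01 against 3.08, 3.63 and 4.15, also without overlap (log2 -0.89, SE 0.13, adjusted p = 0.00090). In the other epithelial cells the medians of mt-Nd5 were 7.74 and 4.92, and those of Mcrip1 0.951 and 1.37. Without the first isotype pool, Alyref, Timm50, Mpdu1, Psmc5, Sema6a, Ulk1, Chd7 and Mib1 missed the threshold. Timm50, Mpdu1, Psmc5, Sema6a, Ulk1, Chd7 and Mib1 also missed it with sums per pool. Mcrip1 and mt-Nd5 missed it without immune marker UMIs. Apoe, a macrophage marker, was lower in interferon-high cells of B20-4.1.1 tumors (-1.81, SE 0.41, adjusted p = 0.016), as the single macrophage marker tested, and the part of macrophage RNA in these differences was not tested.

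A direct test asked whether the contrast of interferon-high against other cells differed between treatments, and 5 of 9817 genes passed (0.0509%). The 4 genes lower under B20-4.1.1 (0.0407%) were Pigr, which carries immunoglobulin A across epithelium (-1.20, SE 0.18, edgeR adjusted p = 0.0028), Parp14 (-0.87, SE 0.16, adjusted p = 0.027), Bst2 (-0.87, SE 0.17, adjusted p = 0.042) and 2310057J18Rik (-2.83, SE 0.55, adjusted p = 0.036). Wfdc12, a whey acidic protein family member, was the single gene with a larger contrast (0.0102% of those tested; 3.20, SE 0.60, adjusted p = 0.027). For Bst2 the medians were 5.48 against 0.446 UMIs per 10000 in isotype and 5.94 against 0.844 in B20-4.1.1 tumors. Pigr stood at 2.17 against 1.07 in isotype and at 0.880 against 0.963 in B20-4.1.1 tumors. Of 63 interferon-stimulated genes tested, 58 had a negative difference (median -0.51, beside -0.02 over all genes), and 2 of them passed. One score limit over all tumors held the interferon-high cells of both treatments to a like level of these genes (90.1 and 96.4), while the other cells stood at 15.0 in isotype and 21.3 in B20-4.1.1 tumors. A smaller contrast of these genes under B20-4.1.1, Parp14 and Bst2 included, is therefore in part fixed by how the cells were chosen and is given as a description. Over 22 other settings the call was lost in 16 for 2310057J18Rik, in 12 each for Parp14, Bst2 and Wfdc12, and in 8 for Pigr. For Pigr these included leaving out the second isotype pool and leaving out the third B20-4.1.1 pool. The count of genes that passed was 22 without the first, 1 without the second and 2 without the third B20-4.1.1 pool, and 3 without the first isotype pool.

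The share of interferon-high cells was set beside measures of immune cells in the same tumor. The interferon-stimulated gene score of Ptprc-positive cells ranged from 0.205 to 0.390 and correlated with the share over 15 tumors (Pearson r = 0.869, permutation p = 0.0053, adjusted p = 0.0160 over 3 relations; Spearman rho = 0.693, adjusted permutation p = 0.0170). Leaving out the 2 tumors farthest from the median score gave r = 0.618. The ninth B20-4.1.1 tumor was highest on both measures, and without it r was 0.408 (permutation p = 0.148, adjusted p = 0.444) and rho 0.622 (permutation p = 0.0203, adjusted p = 0.0610), neither past the threshold after adjustment. Within isotype tumors r was 0.745 (exact permutation p = 0.0861, n = 6) and rho 0.886 (exact permutation p = 0.0333). Within B20-4.1.1 tumors r was 0.839 (exact permutation p = 0.0593, n = 9) and rho 0.250 (exact permutation p = 0.521). Both measures come from the same libraries and share free RNA and depth. With the 3 tumors rich in T cells set aside, since they form a separate cluster, the share had an r of -0.0905 with the percentage of Ptprc-positive cells and of -0.133 with that of CD3-positive cells over 12 tumors (permutation p = 0.756 and 0.581). The first of these turned positive without the third B20-4.1.1 pool, with an r of 0.508 (adjusted permutation p = 0.430) and a rho of 0.817 (adjusted permutation p = 0.0323) over 9 tumors.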

How the data were processed

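Single-cell RNA was measured in 15 tumors in 5 pools. The authors ran Cell Ranger 6.1.2 (per the file headers) and, per the submitters' processing notes, used mm10 and Seurat 4.3.0. They assigned droplets to tumors by oligonucleotide and deposited raw UMI counts per cell, with 31053 genes and no normalization. Matrices were read as deposited. Cells outside 2500 to 27500 UMIs were dropped, which with the Ptprc gate removes some doublets. No doublet caller was run. Each tumor is 1 mouse per the labels and was the replicate.

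Counts were summed per tumor and tested with edgeR 4.0.16 (TMM, filterByExpr, quasi-likelihood F test, two-sided, Benjamini-Hochberg at 0.05, tumor as a block where both sums came from the same tumor) in R 4.3.3, with DESeq2 1.42.0 and limma 3.58.1 (voom) as alternatives. The scripts were tested on simulated data. Single values used exact permutation tests over tumors or 100000 permutations (scipy 1.17.1). Levels are UMIs per 10000 UMIs of the summed cells. Named genes were the 5 score genes, up to 6 genes per list with the highest mean CPM in interferon-high cells, genes past the threshold on a list, and the genes with the largest changes (15 rises and 10 falls, or 5 each) whose log2 CPM averaged 4 or more and that had the same direction in every tumor. Ifit3b, Usp18, Tap1, Psmb9 and Csn2 and the list members given by name alone were named after their values had been seen. The cells and gene lists were chosen with earlier results of these data known. Promoters and coordinates are from RefSeq (GRCm38.p6). One gene of the signalling list is not reported here.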

Additional observations from a re-analysis of the deposited data

Results flagged for a closer look

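Each of 56 groups of 4 to 10 tumors was checked for a highest or lowest tumor apart from the rest, and 5 stood apart, where chance alone picks about 1 in 20. The share of interferon-high cells was 17.95% in the ninth B20-4.1.1 tumor, with the next at 8.92%, and the interferon-stimulated gene score of Ptprc-positive cells was 0.390 in the same tumor, with the next at 0.285. The fourth isotype tumor had a summed MHC class I level of 123 UMIs per 10000 in interferon-high cells, with the next at 63.3, and a Parp14 level of 1.38, with the nearest at 2.47. The 2310057J18Rik level in interferon-high cells was 5.64 UMIs per 10000 in the seventh B20-4.1.1 tumor, with the next at 0.919.

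The contrast of interferon-high against other epithelial cells differed between treatments for 5 genes, tested as an interaction with edgeR. The difference, B20-4.1.1 minus isotype on the log2 scale, was 3.20 for Wfdc12 (adjusted p = 0.027), -1.20 for Pigr (0.0028), -0.87 for Bst2 (0.042), -0.87 for Parp14 (0.027) and -2.83 for 2310057J18Rik (0.036). For Bst2 and Parp14 the choice of cells by 1 score limit over all tumors fixes the direction in part. Wfdc12 and 2310057J18Rik rest on low or uneven levels, with medians of 0.0195 and 0.446 UMIs per 10000 of Wfdc12 in interferon-high cells of isotype and B20-4.1.1 tumors.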

How the results depend on the processing

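The interferon-stimulated list kept its direction in all 24 settings tried, with at least 97.1% of tested members higher and a median of 2.34 to 2.78. The count of genes between interferon-high and other cells was 446, and 215 without cells holding immune marker UMIs, 282 with a UMI maximum of 15000 and 694 with no filter on low counts (301 higher of 21451, 1.4%). Without the tumor as a block, and so without the pairing of both sums of a tumor, it was 242. Leaving out a pool gave 331 to 437.

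The count by treatment within interferon-high cells was 208, and 20 with the top 2%, 450 with the top 10%, 97 with the top 5% within each tumor, 0 without immune marker UMIs (370 at an unadjusted p under 0.05), 110 with the UMI maximum of 15000, 103 with at least 20 cells per tumor, 115 with the pool as a random block, 33 with sums per pool and 19 to 675 without a pool. DESeq2 gave 210.

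The count of differing contrasts was 5, and 12 after thinning, 23 with the top 2%, 0 with the top 10% (511 unadjusted), 2 with the top 5% within each tumor, 2 without immune marker UMIs, 1 with the UMI maximum of 15000, 2 without Isg15 and 0 without Ifi44 in the score (564 unadjusted), 2 with DESeq2, 78 without a filter, 19 with at least 20 cells and 1 to 22 without a pool. The count for Iigp1-led cells was 104, and 44 to 73 without a pool, 402 without a filter, 5 with the top 5% within each tumor and, in the top 5% of scores that leave out a gene, 13 without Ifit1, 14 without Isg15 and 20 without Ifi44 (4 or 5 tumors each).

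The difference in share was 3.64 points, and lost its call with the top 2% (0.983), without immune marker UMIs (3.33), with a mitochondrial limit of 10% (3.20), without Isg15 in the score (2.09), over pools (3.28, and 1.86 without the ninth B20-4.1.1 tumor) and as a share of all kept cells (1.45). It was 2.16 to 4.82 without a pool. The top 5% within each tumor fixes the share and gives no value. The mitochondrial difference lost its call after thinning (-0.338), with the top 2% (-0.629) and without the first isotype or the third B20-4.1.1 pool. It was -0.701 to -0.409 without a pool. The G2/M difference passed with the top 10% (-1.65) and ranged from -2.47 to -1.50 without a pool, and the hypoxia score from 0.0308 to 0.0622. Both passed without the first B20-4.1.1 pool (adjusted p = 0.0433 each), and the hypoxia score difference, 0.0427, was 0.0156 with the top 5% within each tumor. Over pools the list differences in other epithelial cells, 6.35 for interferon-stimulated and 4.34 for MHC class I genes, lost their call. The correlation with the score of Ptprc-positive cells was 0.332 to 0.986 without a pool, 0.408 without the ninth B20-4.1.1 tumor, 0.745 within isotype and 0.839 within B20-4.1.1 tumors.

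Single genes that changed sign were Wfdc12 against other cells (0.12 with the top 10%, 0.053 without immune marker UMIs), Csn1s1 by treatment (0.050 without immune marker UMIs) and the Wfdc12 difference (-0.38 with the top 10%, -0.48 without Isg15 in the score). The cause of these changes was not tested. The planned fit of Iigp1-led cells could not be made in the top 5%. Low transcripts, ligands and cell cycle genes among them, are limited by the 671 cells.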
